A study of Mus musculus with 6 samples.

Results

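The genes described here are 10 inflammatory cytokine and inflammasome genes, Il1a, Il1b, Il1rn, Tnf, Il6, Il10, Il18, Nlrp3, Casp1 and Ptgs2. They were taken by gene name from a count table of 57010 mouse genes, and each name matched 1 gene. Their RNA was measured by bulk RNA sequencing in monocyte preparations of C57BL/6 mice (C57Bl/6J in the methods) aged 1 year, with 3 femur-derived libraries (S13, S15 and S18) and 3 mandibular-derived libraries (S16, S19 and S23). No library had a treatment or an engineered allele, and all preparations were bone marrow enriched for monocytes with a magnetic isolation kit that keeps the unlabeled cells. The study asked how these osteoclast precursors differ between the jaw and a long bone. The methods name male and female mice, but neither they nor the labels give the sex, the animal or any pooling of animals for a single library. The p-values below therefore measure the spread between these libraries, which may be partly technical.

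Interleukin 1 alpha and beta (Il1a, Il1b) bind the same receptor and start inflammation, and the antagonist encoded by Il1rn occupies that receptor without starting a signal. IL-1 beta and IL-18 (Il18) are made as inactive precursors, which caspase-1 (Casp1) cleaves after the sensor NLRP3 (Nlrp3) has assembled an inflammasome with the adaptor ASC. Tumor necrosis factor (Tnf) and interleukin 6 (Il6) are further inflammatory cytokines of monocytes, interleukin 10 (Il10) restrains them, and cyclooxygenase 2 (Ptgs2) is the inducible enzyme of prostaglandin synthesis. In bone, IL-1, TNF, IL-6 and prostaglandin E2 are known to promote the formation of osteoclasts.

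Sequences just upstream of the transcription start are shown for Nlrp3, Casp1 and Il18, whose libraries separated by site (below), and for Il1b and Tnf, whose libraries did not. They come from RefSeq on GRCm38.p6, where 9 of the 10 genes had an entry. Each runs 5′ to 3′ toward the gene for 250 bases and ends at the base before the start. The windows are chr11:59541319-59541568 (plus strand) for Nlrp3, chr9:5298267-5298516 (plus) for Casp1, chr9:50554450-50554699 (plus) for Il18, chr2:129371140-129371389 (minus) for Il1b and chr17:35202008-35202257 (minus) for Tnf. Capitals mark a match to the κB consensus, the sequence that NF-κB binds, in Nlrp3, and to TATAAA, the core of the TATA box, in Il18 (on the opposite strand), Il1b and Tnf.
Nlrp3: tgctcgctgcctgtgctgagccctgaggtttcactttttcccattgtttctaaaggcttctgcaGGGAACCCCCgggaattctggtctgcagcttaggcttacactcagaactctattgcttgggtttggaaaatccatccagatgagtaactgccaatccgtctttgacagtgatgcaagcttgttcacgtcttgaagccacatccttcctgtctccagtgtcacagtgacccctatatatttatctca
Casp1: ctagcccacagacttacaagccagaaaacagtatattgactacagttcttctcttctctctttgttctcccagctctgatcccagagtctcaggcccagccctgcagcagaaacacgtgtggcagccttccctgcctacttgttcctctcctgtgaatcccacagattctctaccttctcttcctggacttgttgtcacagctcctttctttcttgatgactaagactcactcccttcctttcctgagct
Il18: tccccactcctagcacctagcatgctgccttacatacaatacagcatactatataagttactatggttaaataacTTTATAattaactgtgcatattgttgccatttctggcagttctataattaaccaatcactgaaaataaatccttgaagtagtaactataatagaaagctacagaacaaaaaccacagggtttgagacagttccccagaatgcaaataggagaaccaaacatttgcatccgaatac
Il1b: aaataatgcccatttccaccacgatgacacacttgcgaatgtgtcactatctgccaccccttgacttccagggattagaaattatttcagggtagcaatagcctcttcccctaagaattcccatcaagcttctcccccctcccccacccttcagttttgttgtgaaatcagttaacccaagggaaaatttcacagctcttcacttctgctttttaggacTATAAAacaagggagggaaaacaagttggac
Tnf: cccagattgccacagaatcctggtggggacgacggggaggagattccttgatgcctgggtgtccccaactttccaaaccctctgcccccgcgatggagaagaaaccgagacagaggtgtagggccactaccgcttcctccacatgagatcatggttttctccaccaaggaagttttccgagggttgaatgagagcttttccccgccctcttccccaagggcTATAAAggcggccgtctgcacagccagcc

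TATAAA lay 31 to 26 bases before the start of Il1b, 29 to 24 before that of Tnf and 32 to 27 before that of Il1a, and it lay 175 to 170 bases before the start of Il18. Searched on both strands, it was present in 12.4% of the 32851 mouse promoter windows of the same length. The κB consensus, found in 7.25% of all windows, was present at bases 186 to 177 before the Nlrp3 start shown and 44 to 35 before that of Il6. A further Nlrp3 start, with the window chr11:59542436-59542685, had no match to any of these motifs. The AP-1 motif TGANTCA, found in 6.75% of windows, was present upstream of Il1rn, Il1a and Il6. For Il1rn it lay in the window chr2:24336610-24336859 and not in those of its other starts. The interferon-response motif (GAAA, then NN, then GAAA), found in 2.98% of windows, was absent from all 12 windows of the 9 genes. These matches describe letters only, and no binding was measured here.

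The libraries held 15718782 to 25371474 counts on genes. Values are given as counts per 1000000 (CPM) after TMM scaling. Where no read was counted, the upper limit is 3 counts, or 0.133 to 0.172 CPM, for counting error only. Monocyte markers such as Ly6c2, Ccr2 and Csf1r were counted in every library for 12 of 12 genes, and summed to 8352 to 15555 CPM at the femur against 7336 to 13123 CPM at the mandible. Markers of other cells were present and differed between libraries. Neutrophil markers summed to 36388 CPM in S13 and 26710 CPM in S18, against 4694 CPM in S15 and 4905 to 12300 CPM in the mandible. Basophil, mast cell and eosinophil markers reached 4875 and 5066 CPM in S13 and S18, against 692 CPM in S15 and at most 801 CPM in the mandible, and erythroid markers stood at 358 to 2338 CPM at the femur (highest in S13) against 201 to 336 CPM at the mandible, with 3 of 11 genes called lower. Mesenchymal and osteoblast markers summed to 376 to 482 CPM at the femur against 9040 to 15574 CPM at the mandible, with 13 of 15 genes called higher in the mandible. Dental epithelium markers summed to 9.58 to 12.02 CPM and 5829 to 11427 CPM, with 7 of 10 called higher, and Krt5 and Odam had at most 3 counts in each femur library. Megakaryocyte markers went the other way, with 792 to 1130 CPM in the femur, 92.8 to 151 CPM in the mandible and 8 of 9 tested genes called lower. The sums for macrophages, dendritic cells, B and plasma cells, T and NK cells and endothelial cells overlapped between the sites. Single genes of these lists were still called (5.18% of all tested genes were). They were 1 of 10 lower for macrophages, 2 of 10 higher for B and plasma cells and 1 of 9 lower for endothelial cells. In the monocyte list 1 of 12 was called higher. In the neutrophil list 1 of 17 and in the basophil, mast cell and eosinophil list 1 of 10 were called lower. No count fell on the Y-linked Uty, Kdm5d, Ddx3y or Eif2s3y in S23, while each had at least 22.2 CPM in the other 5 libraries. Xist had 25189 counts in S23 and at most 12 in any other library. By these genes mandible library S23 was female and the other 5 libraries were male, so sex was not balanced between the sites. The part of sex in the values below was not tested.

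**Figure D1:**
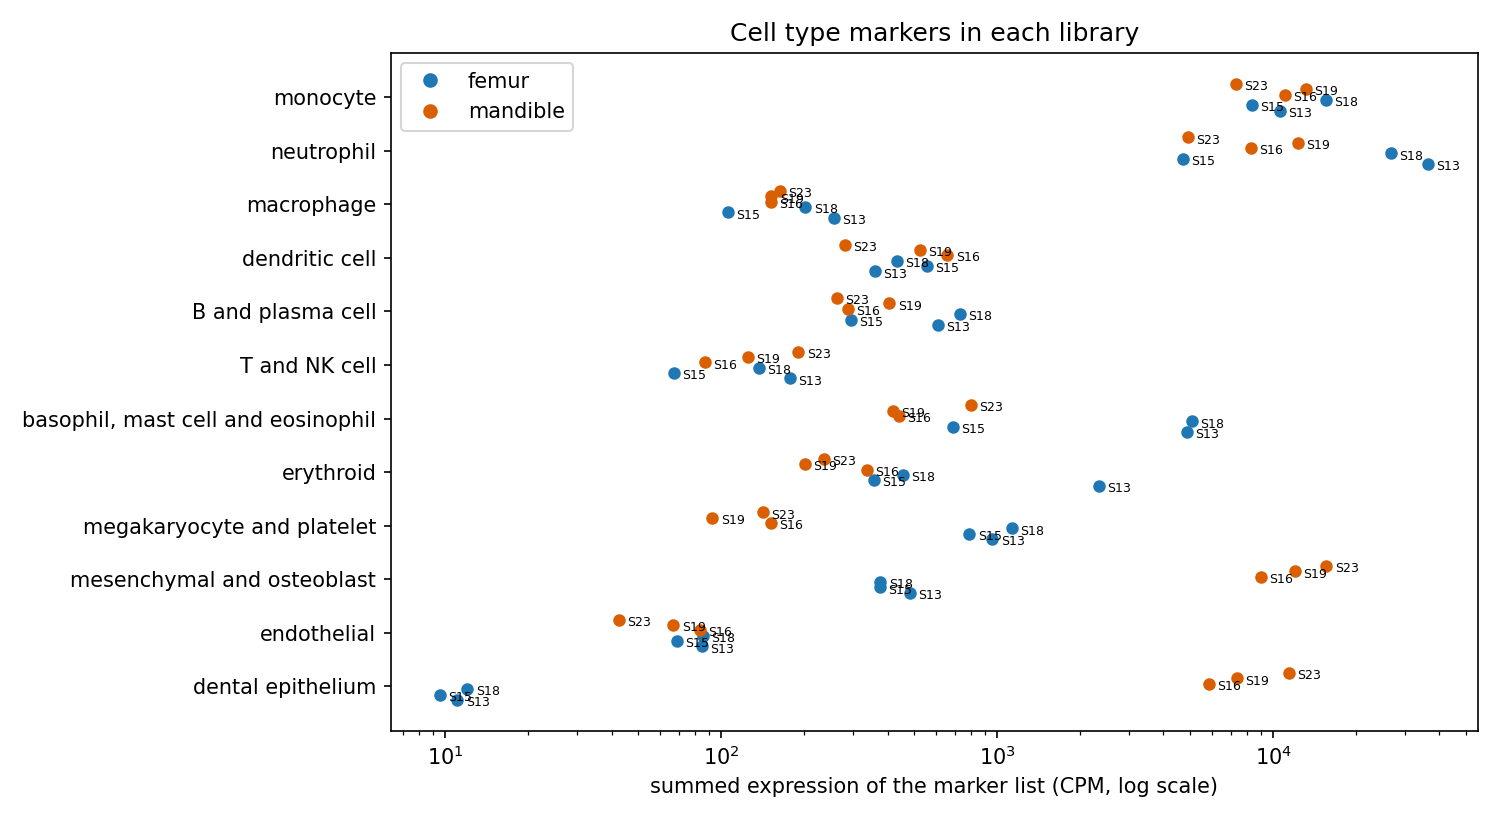
Summed expression of each cell type marker list per library (x axis, TMM-scaled CPM on a log scale, blue femur, orange mandible, 1 point per library). The mandible libraries lie apart from the femur libraries for the mesenchymal (9040 to 15574 against 376 to 482 CPM), dental epithelium, megakaryocyte and erythroid lists, while the monocyte sums of the sites overlap.

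None of the cytokine and inflammasome genes was called different between the sites, which does not show that the sites were equal. Of the 10 genes, 8 passed the filter on low counts and entered the test, and Il1a and Il10 did not. In edgeR's quasi-likelihood test, adjusted by Benjamini-Hochberg over 18114 tested genes, 0 of the 8 were called (adjusted p under 0.05 and at least 2-fold), whereas 5.18% of all tested genes were called (3.88% higher and 1.3% lower in the mandible). The smallest adjusted p among the 8 in that test was 0.266, for Nlrp3, and DESeq2, limma-voom and edgeR's exact test also called 0, with smallest adjusted p of 0.166, 0.204 and 0.236. Under each of these tools 1 of the 8, Nlrp3, had an unadjusted p under 0.05, as did 16.4% of all tested genes in the quasi-likelihood test. The libraries of the sites did not overlap in 3 of the 8, with Nlrp3 higher (12.7% of all tested genes were) and Casp1 and Il18 lower in the mandible (11.5% were). In either direction, 24.2% of all tested genes did not overlap. Of the 8 log2 fold changes of mandible against femur, 4 were above 0 and 4 below, and their median was 0.00, beside -0.04 for all tested genes.

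**Figure D2:**
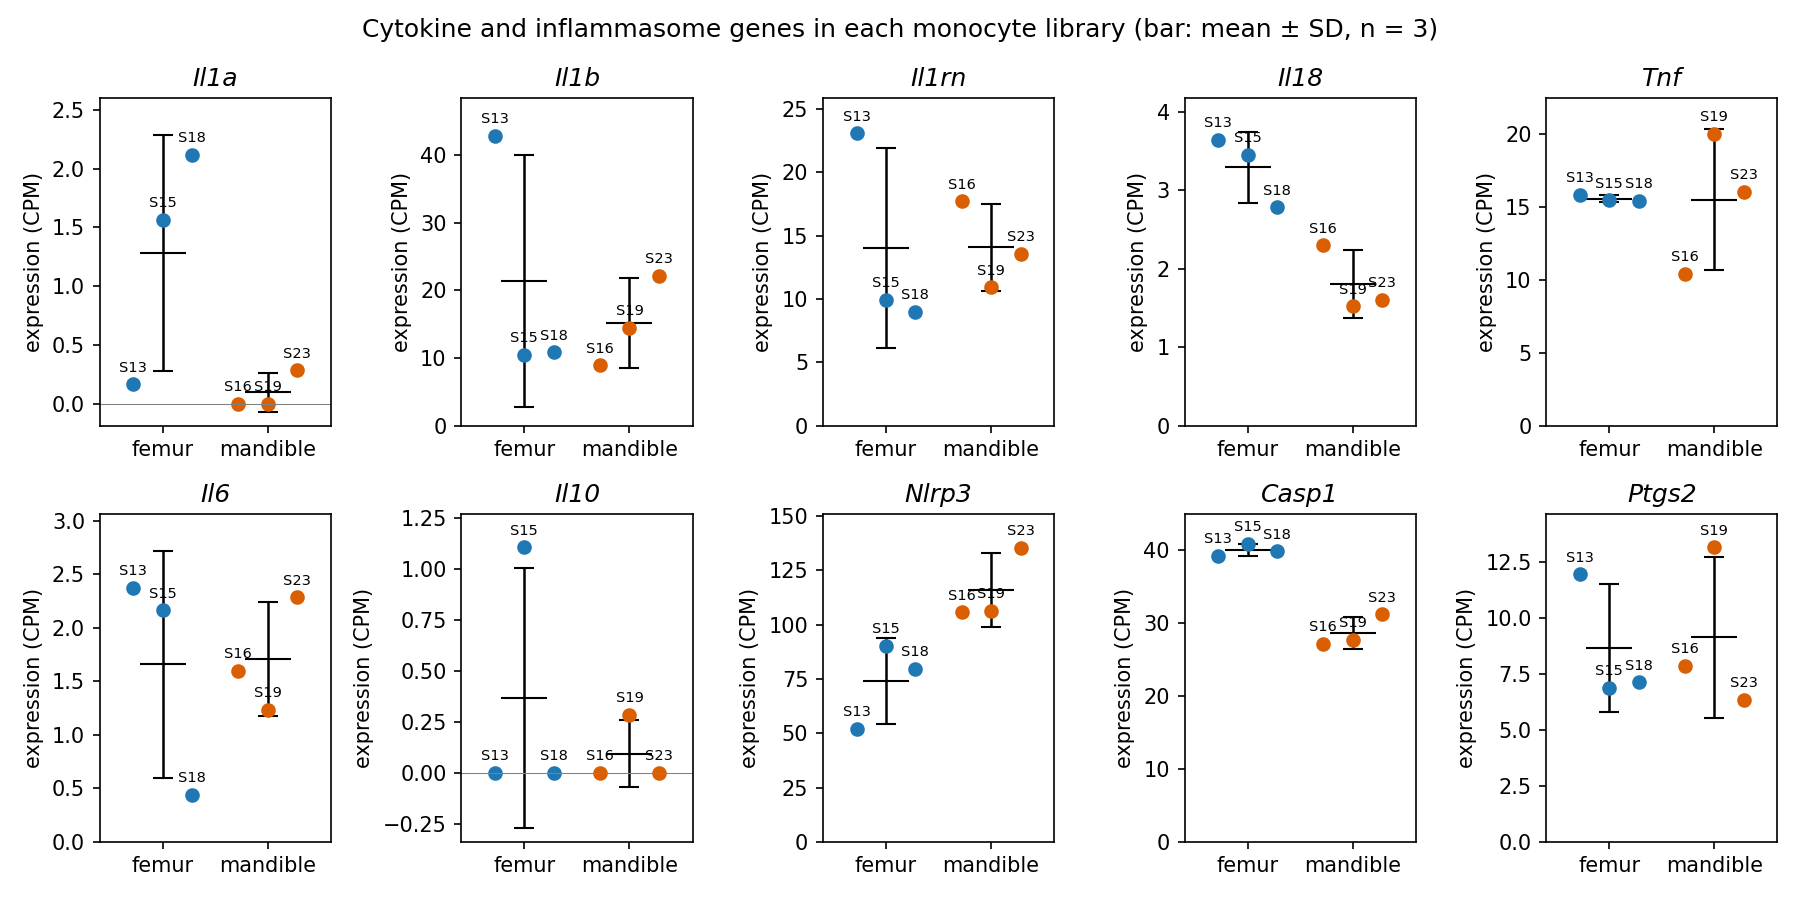
Expression of the 10 genes (y axes, TMM-scaled CPM, each panel on its own scale) in the 3 femur libraries (blue) and the 3 mandible libraries (orange), with the mean and SD of 3 libraries as bars. Nlrp3 is higher and Casp1 and Il18 are lower in every mandible library than in every femur library, and S13 stands above the other 5 libraries in Il1b (42.9 CPM) and Il1rn (23.1 CPM).

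Nlrp3, the sensor (ENSMUSG00000032691, chr11:59541568-59566956, plus strand), had the highest mean level per kilobase of the 10 genes at both sites. It stood at 52.1, 90.3 and 79.7 CPM in femur libraries S13, S15 and S18 and at 105.7, 106.4 and 135 CPM in mandible libraries S16, S19 and S23. Every mandible library was above every femur library, and S13 was the lowest. The mean was 74.1 ± 19.7 CPM for the femur and 116 ± 17.0 CPM for the mandible (SD, n = 3). The mandible was 1.56-fold the femur, with a 95% confidence interval of 1.03 to 2.38, and the log2 fold change was 0.64 with an SE of 0.28. This did not pass the threshold (edgeR's quasi-likelihood test, adjusted p = 0.266), and the exact two-sided permutation test gave p = 0.1, the smallest it can give for 3 against 3 libraries. The summed CPM of 18 genes known to respond to tissue dissociation, among them Fos, Jun and Egr1, stood at 2171, 4151 and 4245 CPM in S13, S15 and S18 and at 3535, 4081 and 4855 CPM in S16, S19 and S23. The sum was lowest in S13 and highest in S23, as Nlrp3 was, but S15 and S18 lay above S16 and S19. In 8 of the 18 genes all mandible libraries lay above all femur libraries, as in Nlrp3 (12.7% of all tested genes), and in 0 below. The part of dissociation in the Nlrp3 values was not tested.

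Casp1, the protease (ENSMUSG00000025888, chr9:5298517-5307265, plus strand), went in the other direction. Its libraries stood at 39.3, 40.9 and 39.9 CPM in the femur (S13, S15 and S18) and at 27.2, 27.7 and 31.2 CPM in the mandible (S16, S19 and S23). The spread within each site was small and the groups did not overlap, with means of 40.0 ± 0.829 and 28.7 ± 2.20 CPM (SD, n = 3). The femur was 1.39-fold the mandible, and the log2 fold change of mandible against femur was -0.48 (SE 0.26, 95% confidence interval -1.04 to 0.08). The adjusted p of edgeR's quasi-likelihood test was 0.410, and the exact permutation p was 0.1.

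Il18, a substrate of caspase-1 (ENSMUSG00000039217, chr9:50554827-50581840, plus strand), was covered by 63 to 75 counts per femur library and 28 to 46 per mandible library. This gave 3.65, 3.46 and 2.78 CPM in S13, S15 and S18 and 2.30, 1.52 and 1.602 CPM in S16, S19 and S23. Again all mandible libraries were below all femur libraries, with means of 3.29 ± 0.453 and 1.81 ± 0.430 CPM (SD, n = 3). The femur was 1.82-fold the mandible. The interval was wide, with a log2 fold change of -0.86 (SE 0.84, 95% confidence interval -2.71 to 0.98), an adjusted p of 0.720 in edgeR's quasi-likelihood test and an exact permutation p of 0.1. With each library's trend of expression on gene length removed, the log2 fold change was -0.35. Tex12 and Bco2 overlap Il18 on the opposite strand for 4507 and 355 bases, with 0 to 7 and 1 to 48 counts per library, and the sources used here do not say whether the counting used the strand.

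In these bulk libraries, fewer cells that make a transcript and less of it per cell cannot be told apart. The marker sums separated the sites without overlap, as Nlrp3, Casp1 and Il18 did, for the mesenchymal and dental epithelium lists (higher in the mandible) and the megakaryocyte and erythroid lists (lower), and their part in these values was not tested. The monocyte markers, which overlapped between the sites, give another scale. Scaled to them in place of TMM, 0 of the 8 genes were called, as with TMM, and 626 of all tested genes were called in place of 938. This scaling does not remove the RNA of other cells, so it cannot tell these readings apart.

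Among the IL-1 ligands, Il1b (ENSMUSG00000027398, chr2:129364570-129371139, minus strand) had the larger SD in CPM at each site. It stood at 42.9 CPM in S13, 10.5 in S15 and 10.9 in S18 in the femur, and at 8.96 in S16, 14.5 in S19 and 22.2 CPM in S23 in the mandible. S13 was the highest of all 6 libraries, and the other femur libraries lay within the mandible range. The means were 21.4 ± 18.6 and 15.2 ± 6.65 CPM (SD, n = 3), and the log2 fold change was -0.49 (SE 0.57, 95% confidence interval -1.74 to 0.75, adjusted p = 0.777 in edgeR's quasi-likelihood test, exact permutation p = 0.8). Without S13 it was 0.52, so the direction rested on that library. S13 was also the library with the most neutrophil and erythroid marker RNA, whereas S18, second in neutrophil markers, had 10.9 CPM of Il1b. The part of these cells in the Il1b value was not tested. The antisense gene Il1bos overlaps Il1b for 1243 bases and had 0 to 25 counts per library, against 179 to 776 for Il1b.

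Il1a (ENSMUSG00000027399, chr2:129299610-129309972, minus strand) was near the limit of detection. It had 3, 34 and 48 counts in femur libraries S13, S15 and S18 and 0, 0 and 5 counts in mandible libraries S16, S19 and S23. The femur libraries thus reached 0.166, 1.57 and 2.12 CPM, and the highest mandible library 0.286 CPM, so the groups overlapped at S13 and S23. The exact permutation p was 0.2. With the filter on low counts left out, the log2 fold change was -3.73, with an adjusted p of 0.503 in edgeR's quasi-likelihood test. Gm14023 overlaps Il1a on the opposite strand for 8217 bases and had 26 to 108 counts per library.

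Il1rn, the receptor antagonist (ENSMUSG00000026981, chr2:24336853-24351494, plus strand), stood at 23.1, 9.95 and 8.97 CPM in S13, S15 and S18 and at 17.7, 10.9 and 13.6 CPM in S16, S19 and S23. As for Il1b, S13 was the highest library and the sites overlapped. The means were 14.0 ± 7.88 and 14.1 ± 3.43 CPM (SD, n = 3), with a log2 fold change of 0.01 (95% confidence interval -0.99 to 1.00, adjusted p = 0.996 in edgeR's quasi-likelihood test). The ratio of agonist to antagonist counts within a library, which does not depend on library scaling, was 1.86, 1.05 and 1.21 in S13, S15 and S18 and 0.506, 1.33 and 1.64 in S16, S19 and S23. S16 was the single library with fewer Il1b than Il1rn counts. These counts are not corrected for gene length, which was 1907 bases for Il1b and 5535 for Il1rn. Per kilobase, Il1b lay above Il1rn in every library. The ranges were 5.48 to 22.5 against 1.62 to 4.17 CPM per kb at the femur, and 4.70 to 11.6 against 1.97 to 3.20 at the mandible. The log2 ratio of counts was 0.41 ± 0.43 in the femur and 0.04 ± 0.90 in the mandible (SD, n = 3). The difference was -0.37 with an exact two-sided permutation p of 0.7, and it was 0.14 without S16.

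Tnf (ENSMUSG00000024401, chr17:35199381-35202007, minus strand) stood at 15.8, 15.4 and 15.4 CPM in the femur libraries S13, S15 and S18. In the mandible it stood at 10.4, 20.0 and 16.02 CPM in S16, S19 and S23. The femur libraries were nearly equal and lay inside the mandible range, with a coefficient of variation of 1.38% in the femur and 31.1% in the mandible. Each rests on 3 libraries, and a difference in spread between the sites was not tested. The log2 fold change was -0.01, with a 95% confidence interval of -0.82 to 0.80 (adjusted p = 0.996 in edgeR's quasi-likelihood test, exact permutation p = 1). A change of 2-fold in either direction lay outside that interval.

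Il6 (ENSMUSG00000025746, chr5:30013114-30019981, plus strand) had 10 to 47 counts per library. It stood at 2.38, 2.17 and 0.442 CPM in S13, S15 and S18 and at 1.601, 1.23 and 2.29 CPM in S16, S19 and S23. The sites overlapped, the log2 fold change was 0.04 and its 95% confidence interval, -2.42 to 2.50, included 4-fold differences in both directions (adjusted p = 0.992 in edgeR's quasi-likelihood test). Il10 (ENSMUSG00000016529, chr1:131019845-131024974, plus strand) was counted in 1 library per site, with 24 counts in femur library S15 and 6 in mandible library S19. The other 4 libraries had 0 counts, and no difference was detectable (exact permutation p = 0.9).

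Ptgs2 (ENSMUSG00000032487, chr1:150100031-150108227, plus strand) stood at 11.9, 6.86 and 7.11 CPM in S13, S15 and S18 and at 7.86, 13.2 and 6.35 CPM in S16, S19 and S23. The highest and the lowest library were both from the mandible. The means were 8.64 ± 2.86 and 9.12 ± 3.57 CPM (SD, n = 3), with a log2 fold change of 0.08 (95% confidence interval -0.99 to 1.15, adjusted p = 0.970 in edgeR's quasi-likelihood test). Ptgs2 and Tnf are also known for AU-rich elements, which decay factors such as tristetraprolin (Zfp36) bind in the 3′ untranslated region (UTR). In the principal GENCODE M21 transcripts, Tnf had 8 copies of ATTTA in 764 bases and Ptgs2 14 in 2445 bases. Tnf also had 5 overlapping copies of TTATTTATT, and 0.585% of the 20518 genes examined had 3 or more. The densest 30 bases of each, from base 437 of the Tnf 3′ UTR and base 12 of the Ptgs2 3′ UTR, are shown with ATTTA in capitals.
Tnf 3′ UTR: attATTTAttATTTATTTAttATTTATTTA
Ptgs2 3′ UTR: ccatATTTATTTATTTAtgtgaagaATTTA

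The other genes had 6 copies of ATTTA (Il6 and Il10), 5 (Nlrp3), 4 (Il1b), 3 (Il1a), 1 (Il18) or 0 (Il1rn and Casp1), and 63.5% of all genes examined had at least 1. Of the genes whose libraries separated by site, Nlrp3 had 5 copies, Il18 1 and Casp1 0.

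**Figure D3:**
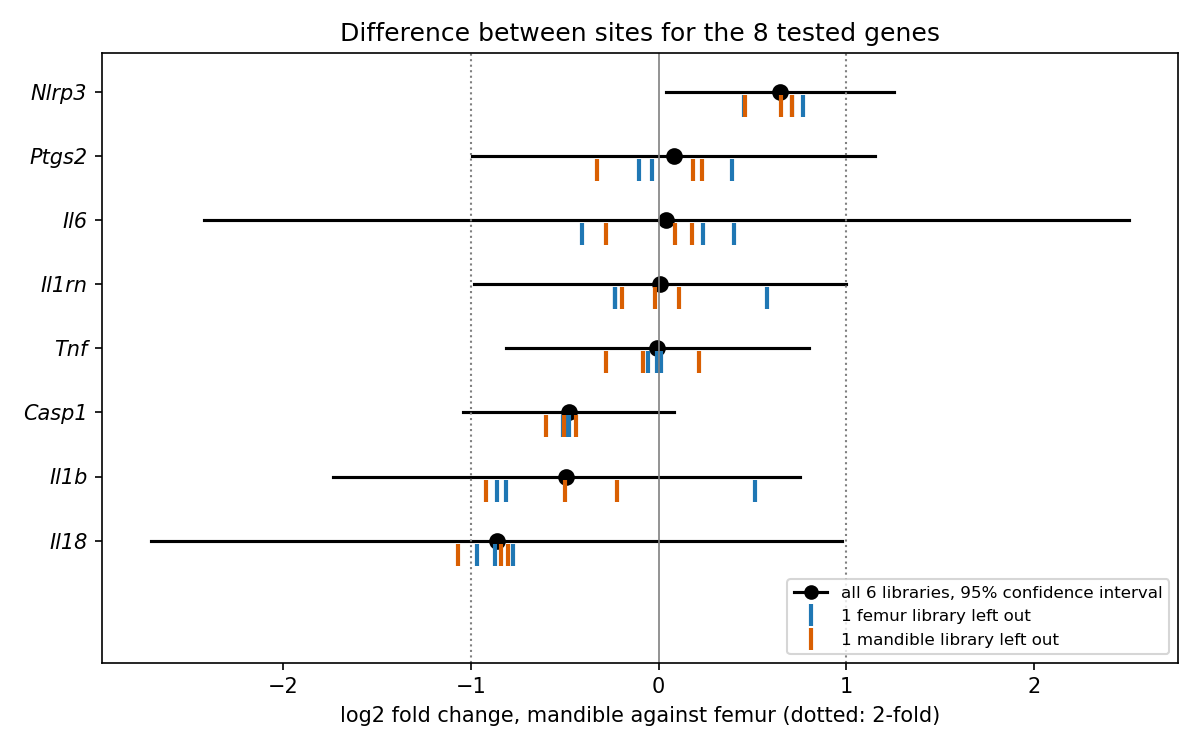
Log2 fold change of mandible against femur (x axis) for the 8 tested genes, with 95% confidence intervals from edgeR's quasi-likelihood fit (black) and the value with 1 femur (blue) or 1 mandible library (orange) left out. Nlrp3, Casp1 and Il18 keep their direction in every leave-out, Il1b turns from -0.49 to 0.52 without S13, and the interval of Il6 is the widest. No gene passed the adjusted threshold.

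Per kilobase of gene length, Nlrp3, Casp1, Il1b and Tnf were the 4 genes with the highest mean levels at both sites. In the femur, Nlrp3 (18.3 ± 4.86 CPM per kb), Casp1 (12.8 ± 0.264), Il1b (11.2 ± 9.75) and Tnf (9.49 ± 0.131) came first (SD, n = 3), and neighbours in this order overlapped. Il18 (3.20 ± 0.439), Il1rn (2.53 ± 1.42) and Ptgs2 (1.89 ± 0.624) followed below Tnf, and only neighbours in this order overlapped. Il6 (0.684 ± 0.437), Il1a (0.651 ± 0.510) and Il10 (0.281 ± 0.487) were lowest. In the mandible, Nlrp3 stood alone at 28.6 ± 4.19 CPM per kb, above the ranges of Tnf (9.44 ± 2.94), Casp1 (9.15 ± 0.702) and Il1b (7.98 ± 3.49), which overlapped. Il1rn (2.54 ± 0.619), Ptgs2 (1.99 ± 0.780) and Il18 (1.75 ± 0.417) followed, then Il6 (0.703 ± 0.220), and Il10 and Il1a were at 0.0725 ± 0.126 and 0.0483 ± 0.0836. The summed expression of the 10 genes was 167 to 191 CPM at the femur against 182 to 229 CPM at the mandible. Nlrp3 made up 27.3, 49.6 and 47.7% of that sum in S13, S15 and S18 and 58.2, 54.4 and 59.2% in S16, S19 and S23.

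The genes whose pattern over the 6 libraries was most like that of a member were found by the root mean square difference of log2 CPM, each gene centred on its own mean. For Il1b these were Mctp2 (0.18), the retinaldehyde dehydrogenase Aldh1a1 (0.19) and Il1r2 (0.26), against a median of 1.079 over 2209 genes of similar or larger spread. Il1r2, the decoy receptor for IL-1, stood at 39.7, 11.5 and 13.8 CPM in S13, S15 and S18 and at 14.5, 19.9 and 25.1 CPM in S16, S19 and S23. S13 was thus its highest library, as for Il1b. For Nlrp3 they were the aryl hydrocarbon receptor Ahr (0.10), the microtubule-associated gene Map4 (0.11) and Mdfic (0.11), against a median of 0.73 over 6235 genes. For Tnf they were Zfp281 (0.08), Ldah (0.09) and Rasa1 (0.09), and for Casp1 Zfp62 (0.05), Cenpo (0.07) and Vps37a (0.07), against medians of 0.52 and 0.47 over 8528 and 8837 genes. The libraries share their depth and scaling across all these genes, so the likeness is a description.

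Lists of the surrounding pathways, from which the 10 genes themselves were left out, were described by their counts. Over all 8 lists 1 of 131 tested genes (0.763%, beside 5.18% of all tested genes), Lifr, was called by edgeR's quasi-likelihood test and by limma-voom. DESeq2 called 6 (Lifr, Tnfaip3, Relb, Ptgs1, Zfp36l1 and Il12a), and edgeR's exact test called 3 (Lifr, Tnfaip3 and Ptgs1). In the list of inflammasome sensors, adaptors and executioners, all 21 genes were tested, 5 had a log2 fold change above 0 and 16 below, and 0 were called (0 with an unadjusted p under 0.05 higher and 2 lower). The median was -0.41, beside -0.04 for all tested genes. Pycard, which encodes the adaptor ASC that joins NLRP3 to caspase-1, stood at 113, 111 and 132 CPM in S13, S15 and S18 and at 58.0, 68.7 and 57.0 CPM in S16, S19 and S23. All mandible libraries were below all femur libraries. Its log2 fold change of -0.95 (SE 0.24) had an adjusted p of 0.0425 in edgeR's quasi-likelihood test but fell short of 2-fold. The adjusted p was 0.0036 in DESeq2, 0.0102 in edgeR's exact test and 0.0424 in limma-voom. These also fell short of 2-fold, with log2 fold changes of -0.92, -0.95 and -0.95. In the quasi-likelihood test the adjusted p was 0.111 to 0.217 without S13, S18, S16, S19 or S23. It was 0.0776 without normalization and 0.212 when scaled to monocyte markers. Pycard passed both thresholds without S15 (log2 fold change -1.04, adjusted p = 0.0190) and with the length trend removed (-1.04, adjusted p = 0.0318). Gsdmd, the pore-forming protein that caspase-1 cleaves, was chosen after its values were seen and averaged 104.9 ± 43.9 and 60.9 ± 13.7 CPM (SD, n = 3, adjusted p = 0.244 in the same test). Txnip, a partner of NLRP3, averaged 233 ± 64.0 and 312 ± 25.4 CPM (adjusted p = 0.565).

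In the IL-1 family list, 18 of 22 genes were tested, 6 had a log2 fold change above 0, 0 were called (1 with an unadjusted p under 0.05, higher in the mandible) and the median was -0.06. The signaling receptor Il1r1 had the smallest p, with a mean of 4.39 ± 0.703 CPM at the femur against 10.98 ± 2.98 CPM at the mandible (SD, n = 3), giving a log2 fold change of 1.32 and an adjusted p of 0.178 in edgeR's quasi-likelihood test. The mesenchymal marker sums were also higher in the mandible, and their part in the Il1r1 values was not tested. In the TNF list, 15 of 16 were tested, 10 were above 0, 0 were called (1 with an unadjusted p under 0.05, higher) and the median was 0.33. The receptor Tnfrsf1b averaged 132 and 206 CPM (adjusted p = 0.315 in the same test). In the IL-6 and IL-10 list, 14 of 15 were tested, 11 were above 0, 4 had an unadjusted p under 0.05 (28.6%, all higher) and the median was 0.48. Lifr, the receptor of leukemia inhibitory factor, rose in the mandible and was the called gene. It stood at 25.7, 31.5 and 25.005 CPM in S13, S15 and S18 and at 44.8, 68.5 and 129 CPM in S16, S19 and S23, with a log2 fold change of 1.56 (SE 0.37, adjusted p = 0.0314 in the same test). Its mandible libraries had the same order as the mesenchymal marker sums (9040, 11941 and 15574 CPM), whose part in the call was not tested. In refits chosen after seeing the data, the call was lost without S13, S18, S19 or S23, with adjusted p of 0.130, 0.135, 0.102 and 0.142. It was also lost with the length trend removed (adjusted p = 0.130) and when scaled to monocyte markers (adjusted p = 0.152).

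The NF-κB list, 17 of 17 tested, had 12 genes above 0, a median of 0.25 and 0 called (5 with an unadjusted p under 0.05, all higher). The mandible libraries were all above the femur libraries in 7 of 17 genes (41.2%, beside 12.7% of all tested genes) and below in 0 (11.5% of all). The dissociation and immediate early list had 8 of 18 above and 0 below. Tnfaip3, the ubiquitin-editing enzyme A20 that limits NF-κB, stood at 43.7, 47.5 and 66.5 CPM in S13, S15 and S18 and at 78.2, 139.8 and 117 CPM in S16, S19 and S23. Its log2 fold change was 1.09 (SE 0.29), with an adjusted p of 0.0598 in edgeR's quasi-likelihood test, 0.0077 in DESeq2 and 0.0142 in edgeR's exact test. In limma-voom the adjusted p was 0.0503. Over the alternatives with all 6 libraries it ranged from 0.0077 to 0.306 (scaled to monocyte markers). With 1 library left out it ranged from 0.0477 to 0.284. Nfkbia, the NF-κB inhibitor, averaged 48.9 ± 9.50 and 83.2 ± 4.82 CPM (SD, n = 3), with an adjusted p of 0.123 in the quasi-likelihood test. Nfkbiz averaged 109.8 ± 28.98 and 192 ± 35.1 CPM, with an adjusted p of 0.157 in that test. Nlrp3 and Tnf are known NF-κB targets, with log2 fold changes of 0.64 and -0.01, and the part of NF-κB in these values was not tested.

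In the prostaglandin list, 17 of 18 genes were tested, 6 were above 0, 0 were called (2 with an unadjusted p under 0.05 higher and 2 lower) and the median was -0.25. Ptgs1, the constitutive cyclooxygenase, averaged 49.0 ± 12.2 CPM at the femur against 22.9 ± 6.19 CPM at the mandible (SD, n = 3), with a log2 fold change of -1.10 and an adjusted p of 0.0791 in edgeR's quasi-likelihood test. It passed both thresholds in DESeq2 (adjusted p = 0.0278) and edgeR's exact test (0.0295), but not in limma-voom (0.0721). The adjusted p of Ptgs1 ranged from 0.0278 to 0.148 over the alternatives with all 6 libraries. With 1 library left out it ranged from 0.0268 to 0.388. The megakaryocyte marker sums were also lower in the mandible (92.8 to 151 against 792 to 1130 CPM). Their part in the Ptgs1 values was not tested. In the list of cytokine mRNA decay factors, 13 of 13 were tested, 9 were above 0, 0 were called (1 with an unadjusted p under 0.05, higher) and the median was 0.14. Zfp36 averaged 237 and 316 CPM (adjusted p = 0.604 in the quasi-likelihood test), and Zfp36l1 averaged 16.6 and 39.3 CPM (adjusted p = 0.115).

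**Figure D4:**
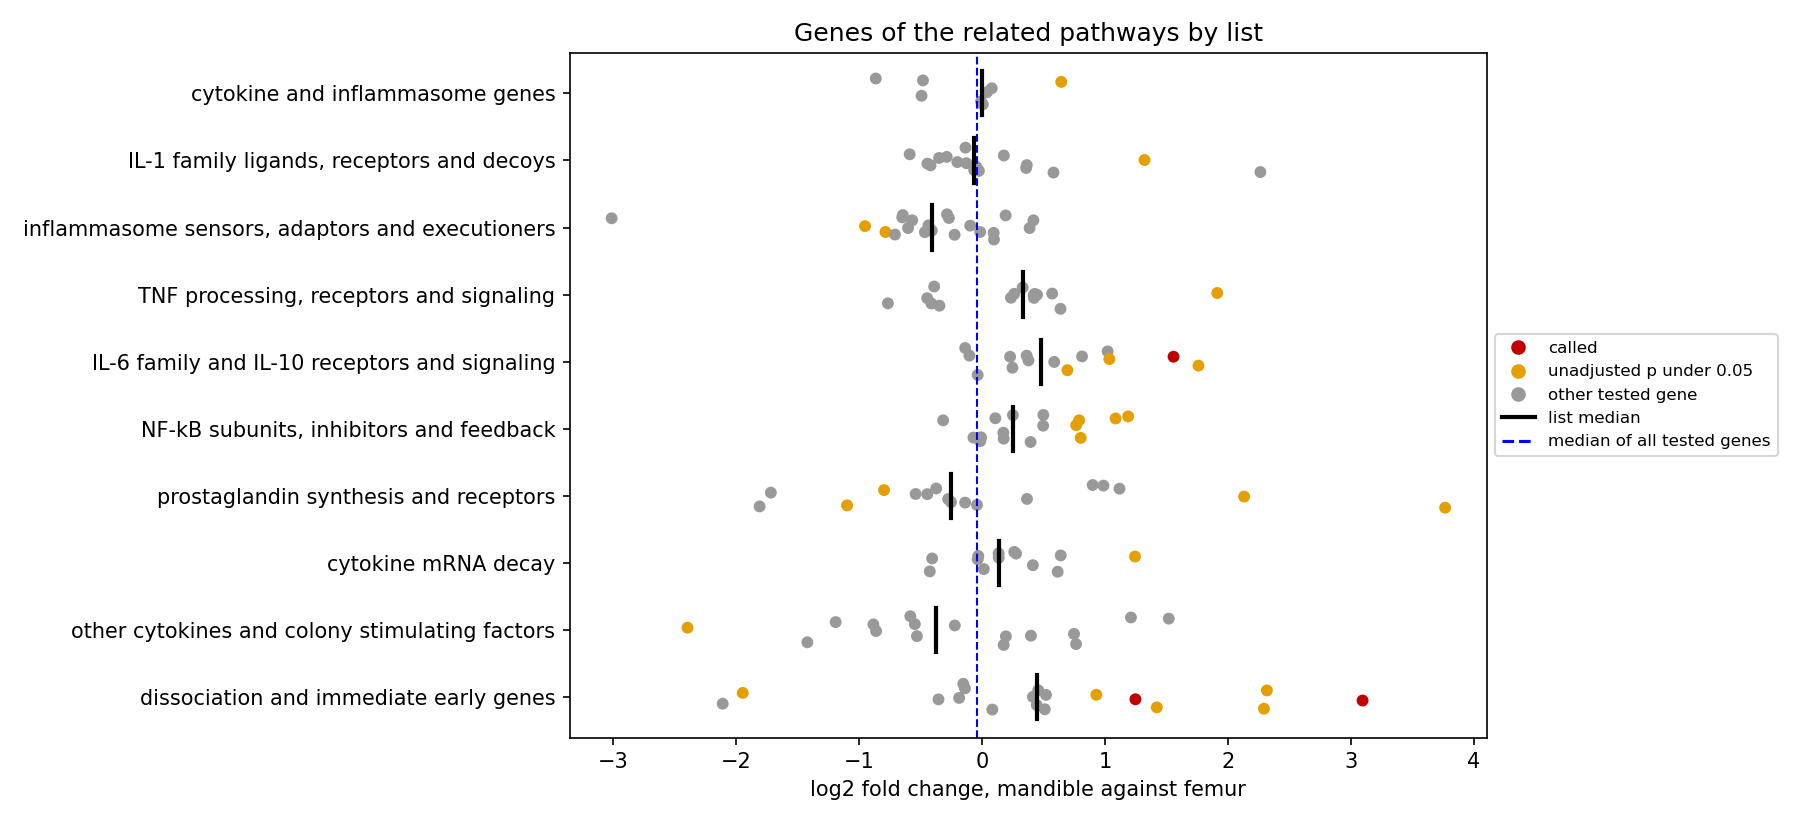
Log2 fold change of mandible against femur (x axis) for every tested gene of each list (rows), with called genes in red, genes with an unadjusted p under 0.05 in orange and all others in grey. Black bars are list medians and the dashed line is the median of all tested genes (-0.04), and among the pathway lists the single red point is Lifr at 1.56, while Egr1 and Nr4a1 are red in the dissociation list.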

How the data were processed

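RNA of 6 monocyte libraries was sequenced, 3 per site. The authors mapped paired-end reads with HISAT2 2.1.0 to a genome named as GRCm38 and counted them with featureCounts (per the submitters' processing notes and the methods), and the deposited values are raw counts per gene, without normalization. Strand use and the handling of reads with several positions are not given in the sources used here. The intervals in the table lay inside the GENCODE M21 (GRCm38) gene for 2979 of 52029 shared genes and 0 of the 10 members, and M21 positions were therefore looked up by identifier.

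The fit used edgeR 4.0.16 under R 4.3.3 (filterByExpr, minimum count 10 and minimum total 15, TMM, quasi-likelihood test, prior count 0.125), without covariates, as mandible against femur. A call needed an adjusted p (Benjamini-Hochberg) under 0.05 and a 2-fold change. Confidence intervals are 95%. For single values an exact permutation test, two-sided, was used, with a smallest p of 0.1. The test was tried on simulated counts. Alternatives used DESeq2 1.42.0, limma 3.58.1, edgeR's exact test, other scalings, filters and thresholds, a prior count of 2, removal of a loess trend on gene length (span 0.4) and each library left out. The totals and floors per library are given in the report.

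The members and gene lists were chosen with earlier results of these data known. Of each pathway list the text could name the 2 genes highest per kilobase, called genes, or else the gene with the smallest p. Of the dissociation and marker lists it could name the 2 genes with the highest mean CPM and give called genes as a count. Likeness was computed for Il1b, Tnf, Casp1 and Nlrp3 among tested genes with a mean of at least 10 CPM. Other named genes were chosen after their values were seen.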

Additional observations from a re-analysis of the deposited data

How the results depend on the processing

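No paired analysis was run, because neither the methods nor the labels give the animal of a library. Whether femur and mandible libraries share mice is unknown. No member was called under any of the alternatives run, including each library left out. Nlrp3 (0.45 to 0.77), Casp1 (-0.60 to -0.44) and Il18 (-1.07 to -0.78) kept their direction when 1 library was left out. Log2 fold changes near 0 turned with 6 libraries for Tnf, to 0.022 with RLE size factors, 0.022 with DESeq2, 0.11 without normalization, 0.0025 with at least 10 counts in every library and 0.26 without the length trend. Il1rn turned to -0.056 without a filter, -0.25 without the length trend and -0.27 when scaled to monocyte markers. Ptgs2 turned to -0.074 without the length trend and -0.23 when scaled to monocyte markers, and Il6 to -0.13 when scaled to them. With 1 library left out the ranges were -0.92 to 0.52 for Il1b, -0.23 to 0.58 for Il1rn, -0.41 to 0.40 for Il6, -0.33 to 0.39 for Ptgs2, -0.28 to 0.22 for Tnf and -0.70 to 0.14 for the Il1b to Il1rn log2 ratio. The cause was not tested. All genes called numbered 938, and 1547 with DESeq2, 1468 with edgeR's exact test, 1590 without a filter, 445 at an adjusted p under 0.01 and 434 (without S19) to 1565 (without S15) with 1 library left out. Pathway genes called numbered 1, and 6 with DESeq2, 4 without a filter, 3 with at least 10 counts in every library, 3 with edgeR's exact test, 3 without the length trend (Lifr not among them), 2 without a fold threshold, 2 without normalization, 0 when scaled to monocyte markers, 0 at an adjusted p under 0.01 and 0 to 5 (without S15) with 1 library left out. Il18 had 28 to 75 counts per library and Il6 10 to 47, and the part of depth in their wide intervals was not tested.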

Other observations

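Of 24 other cytokine and colony stimulating factor genes 16 were tested, 7 had a log2 fold change above 0, 0 were called by edgeR's quasi-likelihood test (0 with an unadjusted p under 0.05 higher and 1 lower) and the median was -0.37. Interferon beta (Ifnb1) had 0 counts in all 6 libraries. The most abundant were Tgfb1, which averaged 165 CPM at the femur against 187 CPM at the mandible, and Il16, with 128 and 146 CPM. Il12a, a subunit of interleukin 12, stood at 3.98, 4.05 and 6.63 CPM in S13, S15 and S18 and at 0.801, 1.28 and 0.686 CPM in S16, S19 and S23. All its mandible libraries were below all its femur libraries, with an adjusted p of 0.156 in edgeR's quasi-likelihood test and 0.0349 in DESeq2. The adjusted p was 0.201 in limma-voom and 0.0723 in edgeR's exact test. With 1 library left out it ranged from 0.158 to 0.593.

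In the dissociation and immediate early gene list, 18 of 18 genes were tested and 12 were above 0. In it 2 genes, Egr1 and Nr4a1, were called higher in the mandible (3.88% of all tested genes were). Egr1 stood at 12.3 to 31.1 CPM at the femur against 171 to 178 CPM at the mandible, with a log2 fold change of 3.10 (adjusted p = 0.00045 in edgeR's quasi-likelihood test). Nr4a1 averaged 58.7 ± 22.96 and 139 ± 4.66 CPM (adjusted p = 0.0468 in the same test), and its call was lost without S13, S16, S18, S19 or S23 (adjusted p 0.107 to 0.178), without normalization (0.0623), with the length trend removed (0.0605) and when scaled to monocyte markers (0.171). Fos averaged 705 ± 347 and 1005 ± 11.7 CPM (SD, n = 3, adjusted p = 0.618 in the same test). Jun averaged 837 ± 332 and 655 ± 218 CPM (adjusted p = 0.758). The heat shock genes Hspa1a and Hspa1b, chosen after their values were seen, averaged 137 and 104 CPM at the femur against 35.7 and 24.1 CPM at the mandible, and neither passed the threshold (adjusted p = 0.302 for Hspa1a and 0.393 for Hspa1b in the same test). The sites did not overlap in 8 of the 18 genes, all higher in the mandible (44.4%, beside 12.7% of all tested genes). Among them were Atf3, Junb, Egr2 and Egr3, with log2 fold changes of 1.42, 0.93, 2.29 and 2.32. Their adjusted p were 0.118, 0.083, 0.129 and 0.105 in the same test. DESeq2 also called Atf3, Egr2 and Egr3, limma-voom Atf3, and edgeR's exact test Atf3 and Egr3.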
